A study of Drosophila melanogaster with 10 samples.

Results

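The odorant-binding protein (Obp) genes were taken from a count table of whole adult male Drosophila melanogaster as all rows whose symbol starts with Obp and a digit, together with lush. This gave 52 genes of 17559 gene identifiers. The older Pbprp names of the rule belong to genes that now carry Obp symbols. The members were chosen by name alone, so no measured value entered the choice. The study's question was how gene expression changes when Mef2 is knocked down in the fat body. Mef2 is a MADS-box transcription factor that drives muscle differentiation.

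There were 5 Mef2 knockdown libraries and 5 control libraries of polyadenylated RNA, each from 5 pooled whole males aged 5 to 10 days after eclosion. Knockdown males were w[1118]/Y, carried 1 copy of the c564 driver and had in addition 1 copy of the hairpin transgene UAS-Mef2-IR[GD15549]. Control males were w[1118]/Y with 1 copy of c564 and no hairpin transgene, so the groups also differ in the transgene and its insertion. The sample labels and the design text of the series place that insertion differently. Both groups carry the c564 driver, which makes GAL4 in the fat body but not there alone. Since whole flies were sequenced, fewer cells of a type and less RNA per cell cannot be told apart in any value below.

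Obps are small secreted proteins, most of which hold a hydrophobic ligand in a pocket braced by conserved cysteines. In olfactory and taste sensilla, support cells release them into the lymph that bathes the dendrites of the sensory neurons, where they bind odorants, pheromones or tastants. Many family members are made elsewhere, in the male reproductive tract, fat body, glia or gut, and several are transferred to the female with the seminal fluid. Most lie in tandem clusters of neighbouring genes.

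Total counts were 43823883 to 102851945 per library, and 3 counts, taken as the detection floor, equal 0.0292 to 0.0685 CPM, counts scaled to library size. Levels are CPM after TMM scaling, and ± gives the SD over 5 libraries. Log2 fold changes are knockdown over control, and a gene is called at an adjusted p under 0.05 by edgeR (quasi-likelihood fit, p-values adjusted by Benjamini-Hochberg over all 13928 tested genes). Earlier work on these data had found that replicates 1 to 3 and replicates 4 and 5 of both groups form separate sets, so effects within each set are given where they differ. Mef2 itself was lower in knockdown (log2 -0.24, adjusted p = 0.0149), with no overlap between the groups. The change of Mef2 was -0.34 in the first set and -0.09 (SE 0.06) in the second, and the sets differed (interaction adjusted p = 0.0425). The fat body markers summed to 2952 to 3653 CPM in knockdown and 3008 to 3735 CPM in control libraries. Single markers differed: of 8 tested, 1 was called higher and 2 lower (37.5%, beside 16.6% of all tested genes). Mtp was higher (log2 0.69, adjusted p = 0.00119) and Lsd-1 lower (log2 -0.76, adjusted p = 0.00408), each without overlap between the groups. No marker on that list was at 0 throughout.

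Of the 52 Obp genes, 38 had enough counts to be tested, 10 had a few counts that never exceeded 17 in a library, and 4 had no count in any library. In Mef2 knockdown, 3 members were higher (Obp58c, Obp83cd and Obp56i) and 5 were lower (Obp56a, Obp56d, Obp56g, Obp51a and Obp57a). These calls are 21.1% of the tested members, beside 16.6% of all tested genes. Over all genes, 11.1% were called higher and 5.51% lower. A further 8 tested members had an unadjusted p under 0.05 in the edgeR test but were not called. The median log2 fold change of the 38 tested members was -0.13, beside -0.00 for all tested genes, with 13 members above 0 and 25 below. With the replicate number as a block, 3 were higher and 10 lower, as Obp8a, Obp19d, Obp22a, Obp56f and Obp56h joined the lower ones. In that fit 13.1% of all tested genes were higher and 7.32% lower. DESeq2 also called 10 lower. The share of all genes called was not computed for DESeq2, limma voom, upper-quartile scaling or the set of replicates as a covariate. Counts from these, here and below, therefore cannot be set against such a share. The number of lower members was 3 without knockdown replicate 2, 2 without control replicate 3 or control replicate 5, and 1 without control replicate 4. The 3 higher members were called under each of these omissions. Of the 3, Obp58c passed the count filter through the knockdown libraries alone, where it is high, and without it 2 were called higher. The 21.1% includes Obp58c and would be smaller without it.

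**Figure D1:**
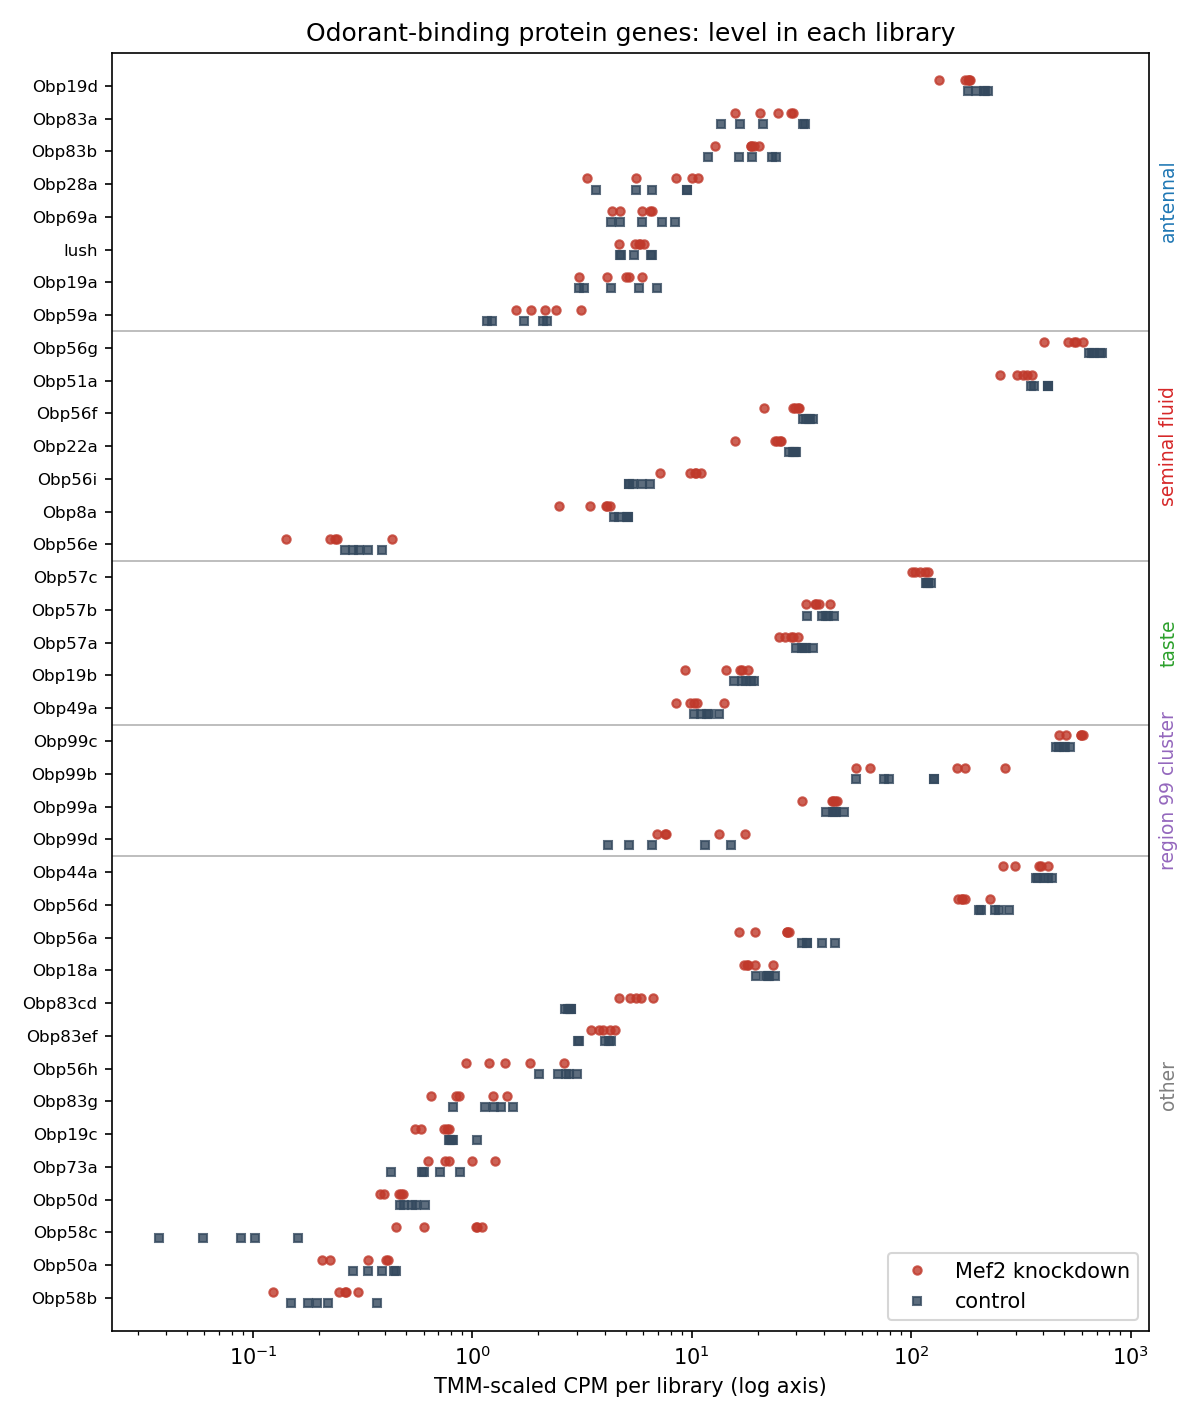
Level of each of the 38 tested members in every library, in TMM-scaled CPM on a log axis, grouped by role, with Mef2 knockdown libraries as circles and control libraries as squares. Obp58c, Obp83cd and Obp56i have all knockdown points to the right of all control points, and the antennal members overlap throughout.

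A few genes carried most of the family's reads. The 5 most abundant members held 72.8% of all Obp CPM, while 7 tested members averaged under 1 CPM. Per kilobase of exon, Obp56g was at 1067 ± 156 CPM per kb in knockdown and 1399 ± 79.2 CPM per kb in control libraries. Obp51a followed with 789 ± 97.0 CPM per kb in knockdown and 993 ± 85.2 in control libraries, and Obp99c with 829 ± 89.4 in knockdown and 735 ± 41.8 in control libraries. Next were Obp44a, Obp56d, Obp57c, Obp99b and Obp19d, with means over all libraries of 350, 227, 206, 201 and 172 CPM per kb. Within their SDs, the order of Obp56d, Obp57c and Obp99b is not resolved, and neither is that of Obp99b and Obp19d. In knockdown libraries the order of Obp51a and Obp99c is not resolved either. The antennal members other than Obp19d lay at or below the 34.8 CPM per kb of Obp83b. Summed over the 52 genes, the level was 2898, 2869, 2860, 2707 and 2122 CPM in knockdown replicates 1 to 5 and 2996, 2887, 2893, 3126 and 3141 CPM in control replicates 1 to 5. The sums of the groups overlap, and knockdown replicate 5 was the lowest. Knockdown replicate 5 had the lowest level of its group in 27 of the 38 tested members (71.1%), beside 27.4% of all tested genes. Without it, 3 members were called higher and 6 lower.

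Of the 9 genes listed here as antennal, 8 were tested and edgeR called none, beside 16.6% of all tested genes. With so few genes, 0 calls do not set them apart from that share. The list comes from general knowledge and may leave out other Obps made in the antenna. They comprise lush, the carrier required for the response of the antenna to the male pheromone cis-vaccenyl acetate, the paired genes Obp83a and Obp83b of trichoid sensilla, Obp59a, which has a role in humidity sensing, and Obp19a, Obp19d, Obp28a, Obp69a and Obp84a. Their median log2 fold change was -0.00, with 4 above 0 and 4 below, and 1 of them, Obp19d, had an unadjusted p under 0.05. Obp19d was also called lower by DESeq2, with the replicate block and with the set as a covariate, and not by limma voom.

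The gene lush was at 5.82, 6.04, 5.74, 5.51 and 4.66 CPM in knockdown libraries and at 6.54, 6.60, 4.69, 5.47 and 4.76 CPM in control libraries. The groups overlapped, and its log2 fold change was -0.02 (SE 0.12, adjusted p = 0.937). Obp83a was at 28.2, 29.0, 24.8, 20.4 and 15.7 CPM in knockdown libraries and at 32.2, 32.7, 16.5, 21.1 and 13.6 CPM in control libraries. The spread within each group was wider than the difference between them (log2 0.02, SE 0.25, adjusted p = 0.953). Its neighbour Obp83b gave a log2 fold change of -0.08 (SE 0.18), at 17.9 ± 2.92 CPM in knockdown and 18.8 ± 5.04 CPM in control libraries. Both genes were lowest in replicate 5 of either group.

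Obp19d, the most abundant of the antennal members and one also made outside the antenna, was at 175, 181, 185, 184 and 134 CPM in knockdown libraries and at 217, 225, 182, 215 and 198 CPM in control libraries. Only control replicate 3 fell within the knockdown range, and the log2 fold change was -0.27 (SE 0.09, adjusted p = 0.0665). Obp59a averaged 2.22 ± 0.597 CPM in knockdown and 1.68 ± 0.472 CPM in control libraries (log2 0.41, SE 0.22, adjusted p = 0.201). The log2 fold changes of Obp28a, Obp19a and Obp69a were 0.13, 0.01 and -0.13, with SEs of 0.32, 0.24 and 0.19. Obp84a did not reach the count filter. The secreted antennal products a5, a10 and Os-C, which are no Obps, summed to 30.8 to 53.7 CPM in knockdown and 28.8 to 61.1 CPM in control libraries.

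**Figure D2:**
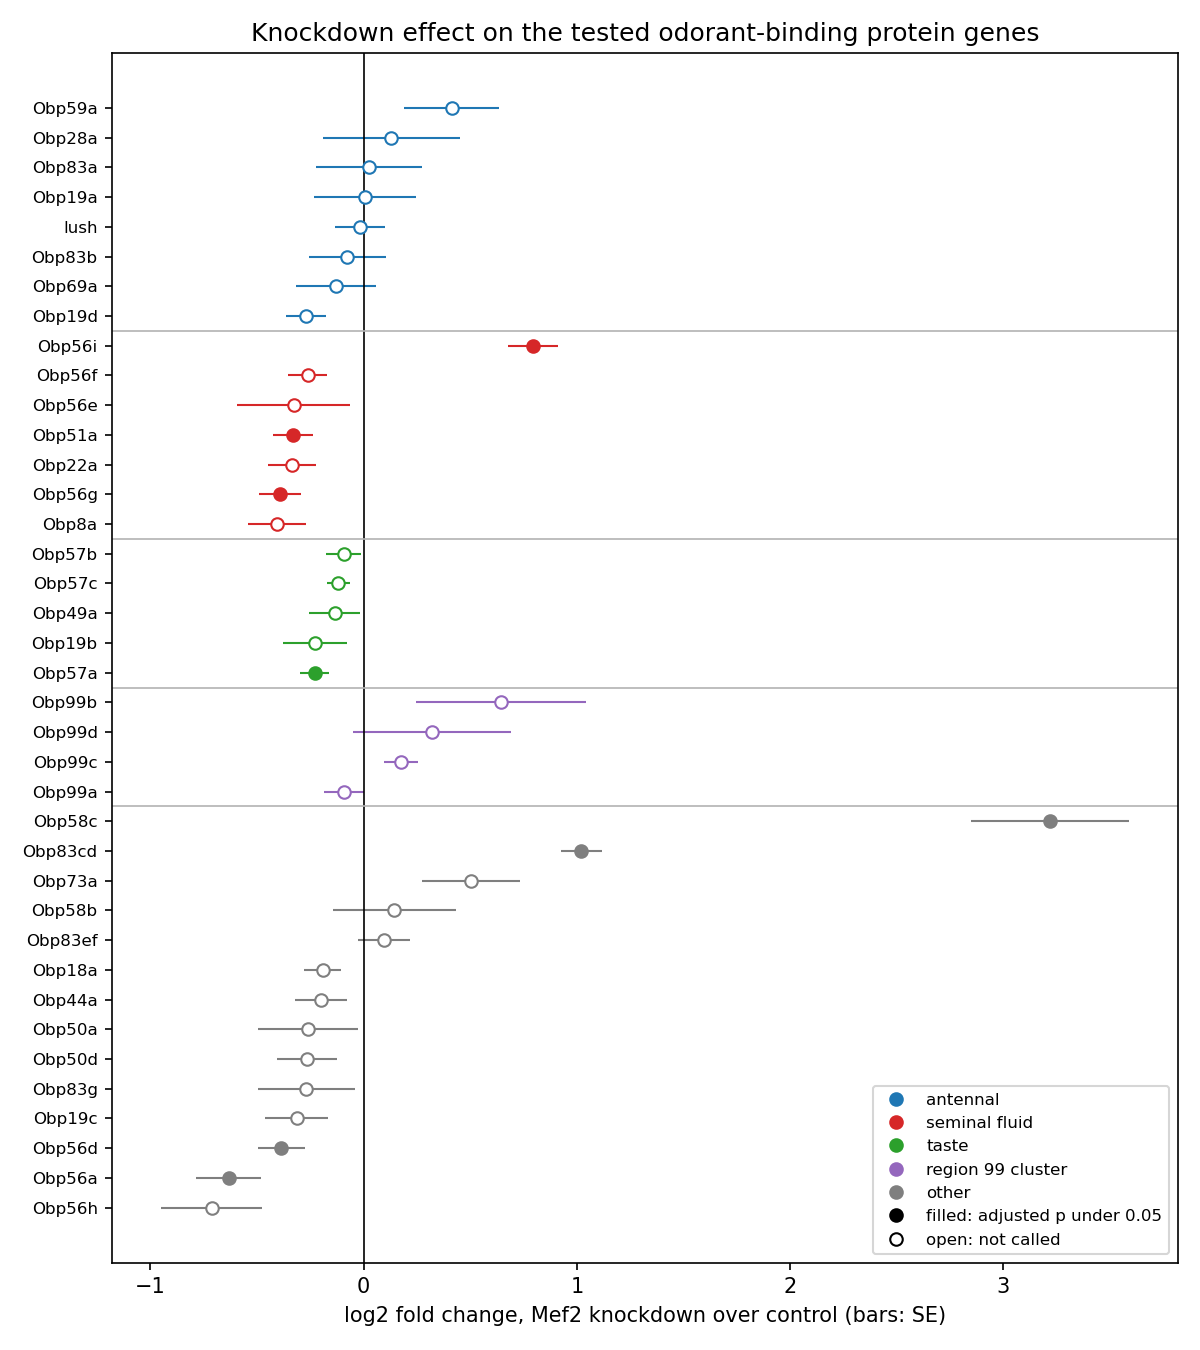
Log2 fold change, Mef2 knockdown over control, of the 38 tested members with its SE as bars, coloured by role and filled where called. Of the 7 seminal fluid members 6 lie left of 0 and Obp56i lies at 0.79, while the 8 antennal members lie on both sides of 0.

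The seminal fluid members are Obps that mass spectrometry places in the ejaculate: Obp8a, Obp22a, Obp51a, Obp56e, Obp56f, Obp56g and Obp56i. All 7 were tested. Obp56i was called higher, Obp56g and Obp51a lower, and the median log2 fold change was -0.33. Over all tested genes, 11.1% were called higher and 5.51% lower. In 5 of the 7 the groups did not overlap, in 1 with knockdown higher and in 4 with knockdown lower. Over all tested genes the groups did not overlap in 18.6%, with knockdown higher in 11.8% and lower in 6.86%. With the replicate block, 1 of the 7 was higher and 5 were lower, beside 13.1% higher and 7.32% lower of all tested genes.

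Obp56g, the most abundant of the family and in males a product of the ejaculatory bulb and of other tissues, was at 606, 565, 551, 517 and 402 CPM in knockdown libraries and at 683, 646, 669, 738 and 728 CPM in control libraries. Every knockdown library was below every control library, and the log2 fold change was -0.39 (SE 0.10, adjusted p = 0.0211). The change was -0.22 in replicates 1 to 3 and -0.67 in replicates 4 and 5, and the sets differed by the interaction test (adjusted p = 0.0348). Without control replicate 4 the call was lost (adjusted p = 0.0521).

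Obp51a was at 337, 303, 323, 354 and 254 CPM in knockdown libraries and at 363, 354, 421, 421 and 418 CPM in control libraries. The groups met at 354 CPM, and the log2 fold change was -0.33 (SE 0.09, adjusted p = 0.0328). The call was lost in 5 of 18 alternatives, namely without knockdown replicate 2, without control replicate 3, 4 or 5, and in replicates 4 and 5 alone (adjusted p 0.0557 to 0.0743). Obp56f was at 29.6, 28.9, 30.6, 30.7 and 21.4 CPM in knockdown libraries and at 33.0, 34.5, 35.5, 34.3 and 32.0 CPM in control libraries. The groups did not overlap, yet the edgeR call was missed (log2 -0.26, SE 0.09, adjusted p = 0.0665). Obp22a and Obp8a, also without overlap, had log2 fold changes of -0.34 (SE 0.11, adjusted p = 0.0592) and -0.41 (SE 0.13, adjusted p = 0.0581). Obp56e was under 1 CPM and its exons lie for 84.4% within those of asRNA:CR44509 on the opposite strand, so its counts are uncertain.

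Obp56i was the exception in this group. It was at 11.1, 10.3, 10.5, 9.85 and 7.15 CPM in knockdown libraries and at 6.44, 5.94, 5.40, 5.15 and 5.20 CPM in control libraries. All knockdown libraries were above all control libraries, and the log2 fold change was 0.79 (SE 0.12, adjusted p = 0.00111). It was 0.84 in replicates 1 to 3 and 0.71 in replicates 4 and 5. The gene next to it, lncRNA:CR44460, lies 30 bases away. It fell to 0.906 ± 0.180 CPM in knockdown, against 1.84 ± 0.226 CPM in control libraries (log2 -1.01, adjusted p = 0.00137), and was singled out after its values were seen.

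Markers of the male reproductive glands moved with these members. Summed over the 7 seminal fluid members, the level was 703 to 1013 CPM in knockdown and 1075 to 1232 CPM in control libraries. The 25 accessory gland genes, which encode the sex peptide and other Acps, summed to 3751 to 5032 CPM in knockdown and 5275 to 5917 CPM in control libraries. Of their 24 tested genes, edgeR called 0 higher, also at an unadjusted p under 0.05, and 5 lower, beside 5.51% lower of all tested genes. The median log2 fold change was -0.24. DESeq2 and the replicate block each gave 9 lower and 0 higher, the set as a covariate 11 lower, and limma voom 4 lower. With the block, 7.32% of all tested genes were lower. Acp24A4 was among the 5 lower in edgeR, at 175 ± 25.3 CPM in knockdown and 245 ± 11.9 CPM in control libraries (log2 -0.49, adjusted p = 0.00513). Its change was -0.32 in replicates 1 to 3 and -0.75 in replicates 4 and 5 (interaction adjusted p = 0.0234). The 6 genes of the ejaculatory duct and bulb summed to 5096 to 6286 CPM in knockdown and 6678 to 7518 CPM in control libraries. Of the 6, 2 were lower in edgeR, with limma voom and with the replicate block. The number was 3 with upper-quartile scaling and 4 with DESeq2 or the set as a covariate. The summed level of neither gland list overlapped between the groups, and knockdown replicate 5 was lowest for both sums. Gene by gene, most overlapped. The groups were apart in 20.8% of the tested accessory gland genes and 33.3% of the duct and bulb genes, beside 18.6% of all tested genes. No defining marker was at 0 in all libraries except 1 gene of the accessory gland list. The part of gland content in the change of the seminal fluid members was not tested.

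The taste members are Obp49a, through which bitter compounds suppress the response of sugar neurons, Obp19b and the Obp57 genes, which are known from taste sensilla and whose relatives differ between Drosophila species with different host plants. Of 7 members 5 were tested, all 5 had a log2 fold change below 0, and 1 was called (20%, beside 16.6% of all tested genes). Their median was -0.14. Obp57a was at 30.6, 25.1, 28.3, 29.0 and 26.5 CPM in knockdown libraries and at 32.7, 30, 31.7, 35.9 and 33.3 CPM in control libraries. The groups overlapped only through knockdown replicate 1 and control replicate 2, and the log2 change, -0.23 (SE 0.07, adjusted p = 0.0392), was the smallest among the called members. This call was lost in 8 of 18 alternatives. Obp57b and Obp57c lie on the same strand directly before it, and their log2 fold changes were -0.09 (SE 0.08) and -0.12 (SE 0.05), without a call. Obp57c was at 110 ± 7.40 CPM in knockdown and 119 ± 2.51 CPM in control libraries. Obp57e did not reach the count filter. Obp57d was at 0 throughout, and its exons lie wholly within those of Cpr57A on the same strand, which was also at 0.

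The 4 genes of region 99 on chromosome 3R include Obp99b, a male-biased gene of the fat body also known as tsx, for turn on sex-specificity. Their edgeR call count was 0, beside 16.6% of all tested genes, and with only 4 genes that does not set them apart. None had an unadjusted p under 0.05 in edgeR, and neither DESeq2 nor limma voom called any. With the set of replicates as a covariate 1 was called, Obp99d, at a log2 of 0.36 and an adjusted p of 0.0469. Obp99b was at 162, 177 and 266 CPM in knockdown replicates 1 to 3 and at 56.2 and 65.0 CPM in knockdown replicates 4 and 5. In control libraries it was at 79.5, 56.04 and 74.9 CPM in replicates 1 to 3 and at 127 and 128 CPM in replicates 4 and 5. Knockdown was therefore higher in the first set and lower in the second, and the pooled change, 0.64 on the log2 scale (SE 0.40, adjusted p = 0.264), describes neither. Its change was 1.52 in replicates 1 to 3 and -1.07 in replicates 4 and 5, and the interaction test gave an adjusted p of 0.00163. Fitted alone, replicates 1 to 3 gave 1.52 (adjusted p = 0.000309) and replicates 4 and 5 gave -1.10 (adjusted p = 0.00202).

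Other fat body genes beside Obp99b also differed between the sets. Of 8 tested fat body markers, 5 passed the interaction test, beside 18.8% of all tested genes. The 8 had a median log2 fold change of 0.12 in the first set and -0.42 in the second. The sex-biased fat body genes Yp1, Yp2, Yp3, fit and to all had log2 fold changes below 0, with a median of -0.53 in replicates 1 to 3 and -1.04 in replicates 4 and 5. Only 1 of these 5 passed the interaction test, and fit and to are also among the fat body markers. The 5 sex-biased genes summed to 48.7 to 93.5 CPM in knockdown and 94.6 to 115.5 CPM in control libraries. The part of these differences in the values of Obp99b was not tested. The neighbouring Obp99d did not share the reversal, with 10.6 ± 4.68 CPM in knockdown and 8.49 ± 4.62 CPM in control libraries and changes of 0.47 and 0.22 in the 2 sets. In both groups Obp99d was highest in replicates 4 and 5. The log2 fold change of Obp99c was 0.17 (SE 0.08, adjusted p = 0.143) and that of Obp99a -0.09 (SE 0.09).

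**Figure D3:**
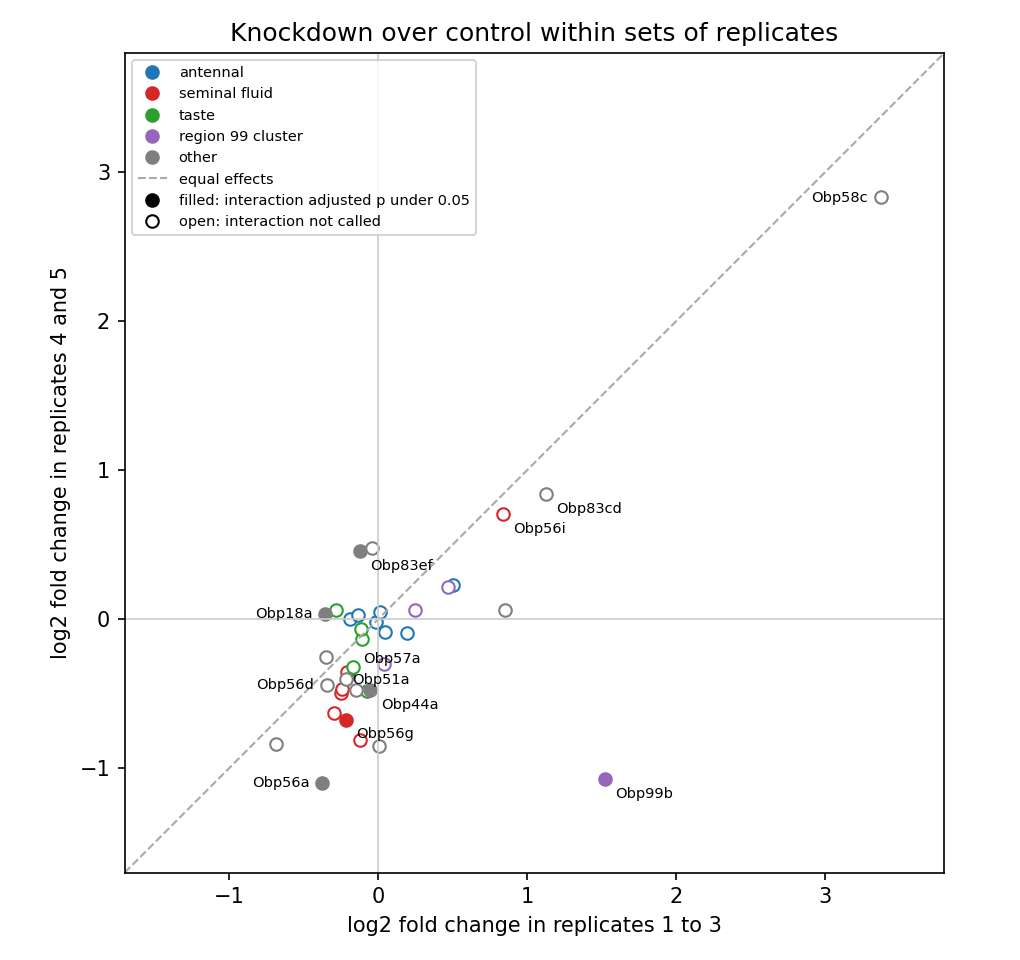
Log2 fold change of each tested member within replicates 1 to 3 (horizontal) against replicates 4 and 5 (vertical), with the line of equal effects dashed and points filled where the interaction test was passed. Obp99b lies alone at 1.52 and -1.07, and Obp56a and Obp56g lie below the line.

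The difference between the sets passed the interaction test in 6 of the 38 tested members, beside 18.8% of all tested genes. Apart from Obp99b, Obp56g and Obp56a they are Obp44a, Obp18a and Obp83ef. Obp44a, which is made in glia, was at 390, 420, 383, 298 and 262 CPM in knockdown libraries and at 440, 421, 377, 373 and 405 CPM in control libraries. The 2 knockdown libraries of replicates 4 and 5 lay below all control libraries, while those of replicates 1 to 3 lay within the control range. The log2 fold change was -0.05 in replicates 1 to 3 and -0.48 in replicates 4 and 5 (interaction adjusted p = 0.0316). Obp18a changed by -0.35 in replicates 1 to 3 and 0.04 in replicates 4 and 5 (interaction adjusted p = 0.0443), and Obp83ef by -0.12 and 0.46 (interaction adjusted p = 0.0279). All 8 called members had the same direction in both sets, and the 5 lower ones had the larger fall in replicates 4 and 5. The 8 were called on both sets together, so the shared direction was largely fixed by that choice and is no separate support. Replicates 1 to 3 alone gave 7 members higher and 8 lower, beside 15.4% and 9.92% of all genes tested there. Replicates 4 and 5 alone gave 3 higher and 6 lower, beside 13.2% and 14.4%.

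The other 25 members are on none of the lists above, which does not place them outside those tissues. Of these, 14 were tested, with 2 higher and 2 lower, beside 11.1% higher and 5.51% lower of all tested genes. Obp58c, of unknown function, had few counts in control libraries. Its counts were 52, 106, 54, 20 and 38 in knockdown libraries and 5, 9, 2, 3 and 4 in control libraries. In CPM these are 1.05, 1.04, 1.11, 0.447 and 0.600 in knockdown and 0.102, 0.161, 0.0374, 0.0592 and 0.0881 in control libraries. All knockdown libraries were above all control libraries. Every control count was under the filter's minimum of 10, so the gene was tested only because it is high in knockdown, and its fold change and p describe a gene with few control counts. The log2 fold change was 3.22 (SE 0.37, adjusted p = 0.000229), with 3.37 in replicates 1 to 3 and 2.83 in replicates 4 and 5. Its neighbours Obp58b and Obp59a had log2 fold changes of 0.14 (adjusted p = 0.745) and 0.41 (adjusted p = 0.201), and Obp58d had too few counts. The gene on its other side that was tested, CG30275, lies 1115 bases away and fell by 0.26 on the log2 scale (adjusted p = 0.0204).

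Obp83cd was at 5.58, 5.85, 6.62, 5.25 and 4.66 CPM in knockdown libraries and at 2.80, 2.82, 2.64, 2.78 and 2.73 CPM in control libraries. The control libraries were close together and every knockdown library was higher (log2 1.02, SE 0.10, adjusted p = 5.1e-05). The change was 1.13 in replicates 1 to 3 and 0.84 in replicates 4 and 5. Obp83ef, which converges on it from the opposite strand and shares 92 bases of exon with it, was at 3.98 ± 0.389 CPM in knockdown and 3.71 ± 0.627 CPM in control libraries (log2 0.09, SE 0.12, adjusted p = 0.599). Where the counting did not use strand, reads from the shared stretch could belong to either gene. Obp83g, the third gene of the cluster, had a log2 fold change of -0.27 (SE 0.23).

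**Figure D4:**
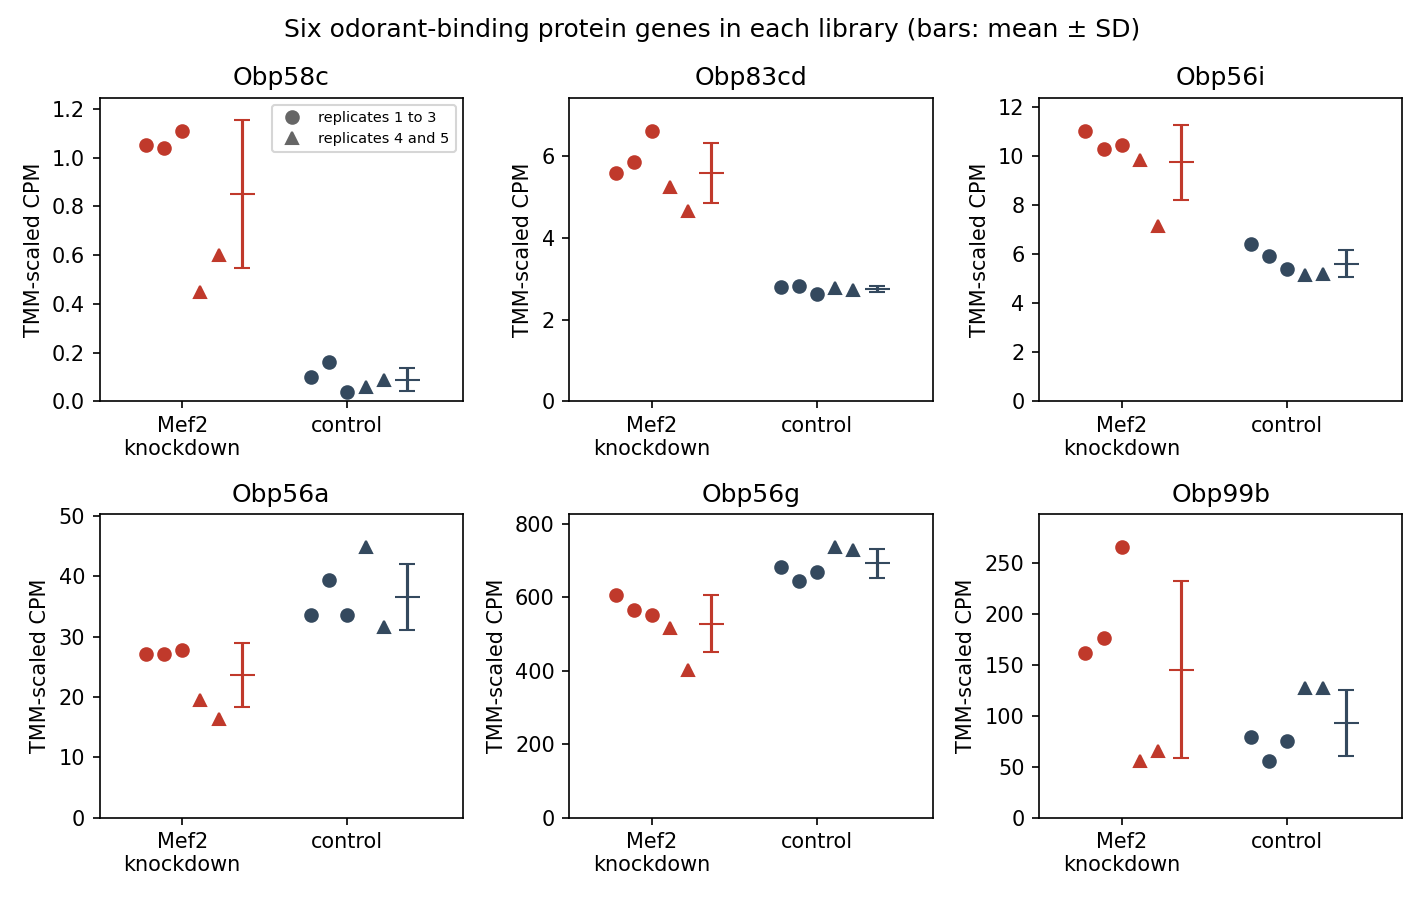
Level in each library, in TMM-scaled CPM on linear axes from 0, of Obp58c, Obp83cd, Obp56i, Obp56a, Obp56g and Obp99b, with Mef2 knockdown left of control, circles for replicates 1 to 3, triangles for replicates 4 and 5, and bars for the mean ± SD. Groups are apart in the first 5 genes, and Obp99b is higher in knockdown circles and lower in knockdown triangles.

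Obp56a was at 27.2, 27.2, 27.8, 19.4 and 16.4 CPM in knockdown libraries and at 33.5, 39.4, 33.7, 44.9 and 31.7 CPM in control libraries. No library of one group reached the other, and the log2 fold change was -0.63 (SE 0.15, adjusted p = 0.0177). The change was -0.38 in replicates 1 to 3 and -1.10 in replicates 4 and 5, with an adjusted p of 0.0258 for the interaction. Obp56d, which lies 4415 bases from it, was at 170, 171, 175, 228 and 164 CPM in knockdown libraries and at 209, 204, 242, 252 and 279 CPM in control libraries. Knockdown replicate 4 was within the control range, and the log2 fold change was -0.39 (SE 0.11, adjusted p = 0.0339). That call was lost in 8 of 18 alternatives. Obp56h, known from male mating behaviour, was at 1.60 ± 0.657 CPM in knockdown and 2.58 ± 0.377 CPM in control libraries (log2 -0.71, SE 0.24, adjusted p = 0.0598), and was called lower with the replicate block (adjusted p = 0.0264). The tested Obp56 genes span a stretch of chromosome 2R and did not all share 1 direction. Obp56a, Obp56d and Obp56g were called lower, and Obp56e, Obp56f and Obp56h were below 0 without a call. Only Obp56i was higher, and it lies 48512 bases from Obp56h, the nearest member.

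**Figure D5:**
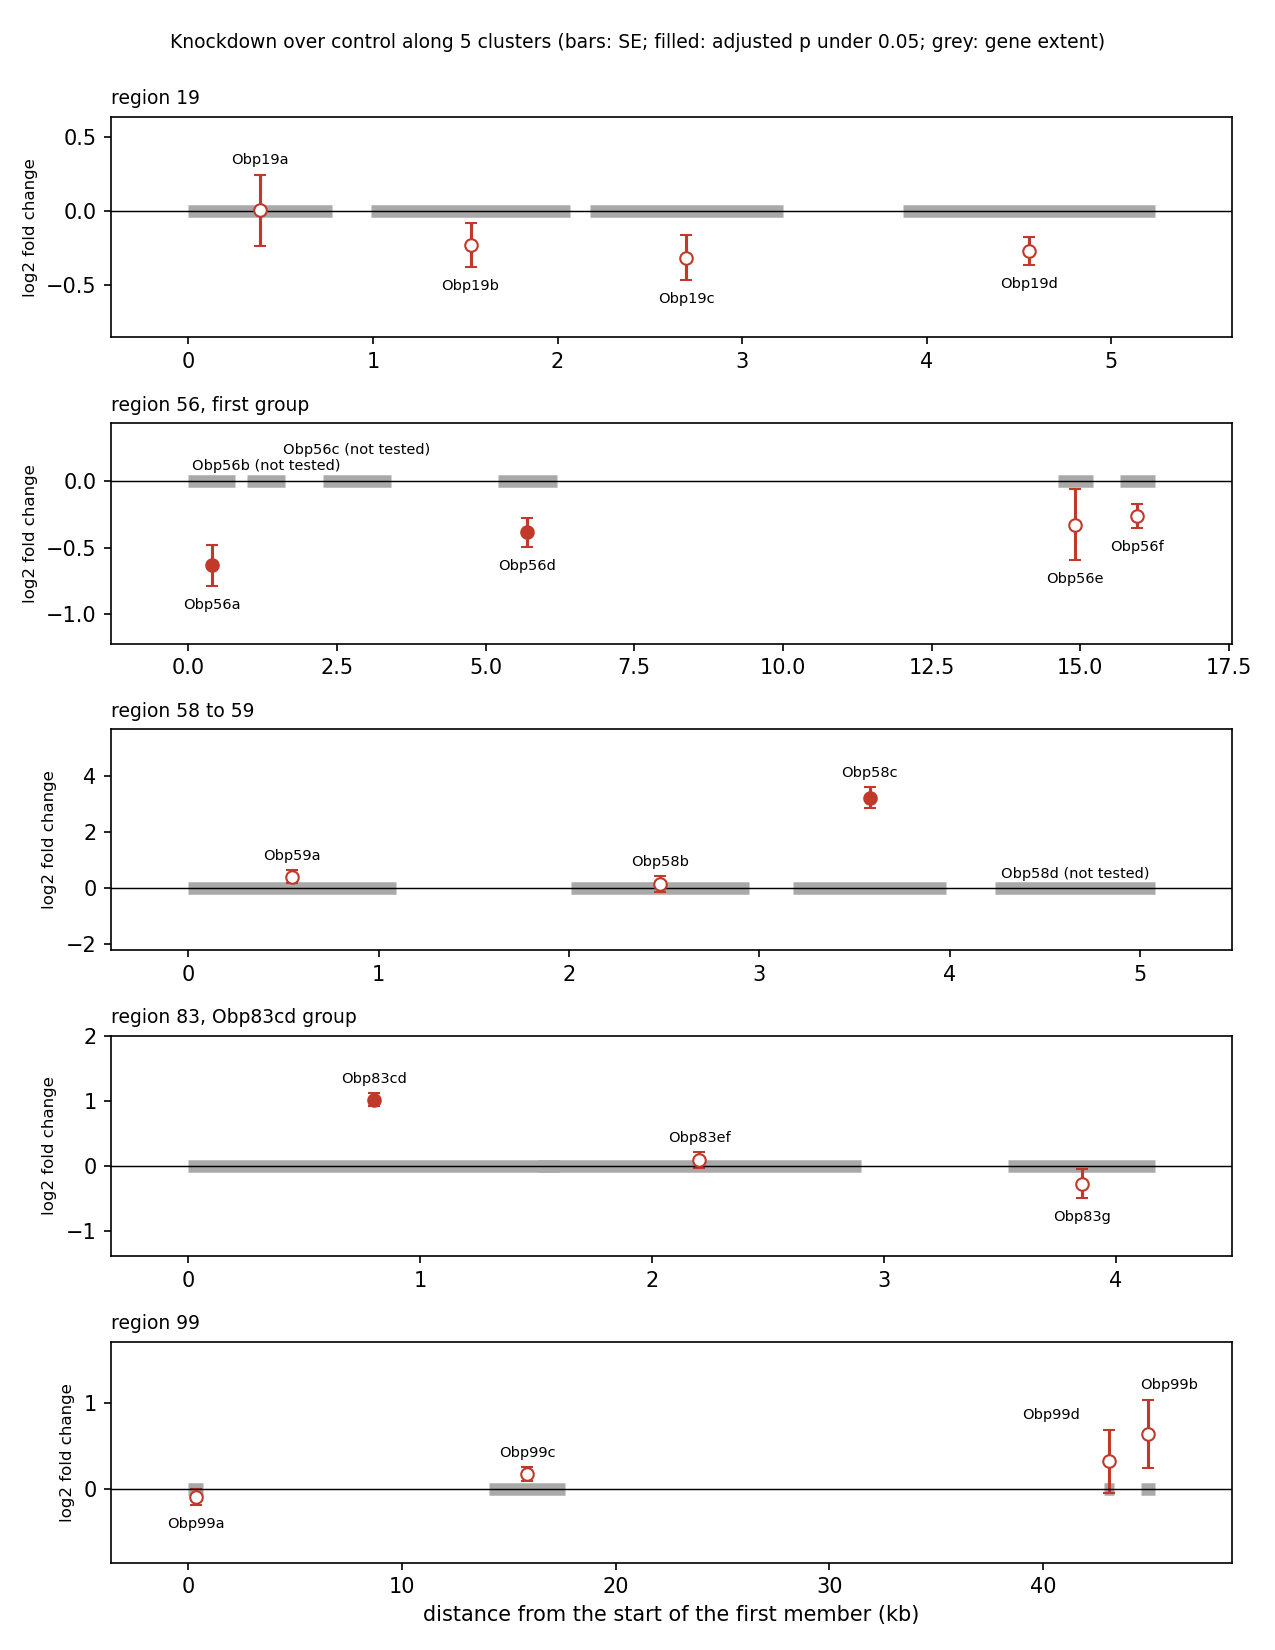
Log2 fold change with SE along 5 clusters of neighbouring members, against the distance in kb from the start of the first member, with gene extents as grey bars. Obp58c and Obp83cd stand above their neighbours, and Obp56a and Obp56d lie below 0.

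By position, 36 of the 52 members lie in 9 clusters, taking genes within 50 kb of each other as clustered, and 16 lie alone. Chromosome arm 2R holds 29 members, 3R 12, X 6, 3L 3 and 2L 2. Of the 8 called members 7 lie on 2R, where 18 were tested, and 1 on 3R, where 9 were tested. Over all tested genes 17.9% were called on 2R and 15.6% on 3R. The exons of 14 members overlap those of another gene in Ensembl annotation. The 4 members at 0 in all libraries, Obp47b, Obp50b, Obp50c and Obp57d, are those whose exons lie wholly within another gene. Obp50b and Obp50c share 1 set of coordinates, chromosome 2R 14371186 to 14373006, and Obp47b lies within CG7741 on the opposite strand. How reads of overlapping genes were counted is not given in the sources used here, so these zeros do not show that the genes were silent. Of the others, Obp56e, Obp84a and Obp93a are covered for over 80% and 7 members for under 25%.

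The receptors that work with Obps in sensory neurons were called in both directions. Of 31 tested odorant receptors with Orco, 1 was higher and 2 lower. Of 29 tested ionotropic receptors, 2 were higher and 1 lower, and of 28 tested gustatory receptors, 2 were higher and 2 lower. The calls are 9.68%, 10.3% and 14.3% of these lists, beside 16.6% of all tested genes. The higher ionotropic receptors were Ir56b, with 15 to 50 counts in knockdown and 0 to 5 in control libraries, and Ir56d, with 16 to 36 and 2 to 6. The higher odorant receptor, Or59a, had 24 to 49 and 4 to 13. Each passed the count filter through the knockdown libraries alone, where it is high, so these higher calls are no result about the receptors. Of the CheA and CheB proteins, another secreted family of taste sensilla, edgeR called 0 of 20, with 1 at an unadjusted p under 0.05, and DESeq2 and limma voom also called 0.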

How the data were processed

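The deposited table holds raw whole-number counts per gene for 17559 identifiers in 10 libraries, made by the authors with a stranded poly(A) mRNA kit. The submitters' processing notes name genome BDGP6 and, without roles or order, featureCounts, limma, bcl2fastq and STAR 2.4.0j. Which annotation release and strand setting were used, and how ambiguous reads were treated, is not given in the sources used here. Symbols and coordinates came from Ensembl release 115 of BDGP6, which matched 17253 identifiers and left 306 without a symbol.

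The counts were fitted in R 4.3.3 with edgeR 4.0.16 (TMM scaling, filterByExpr at a minimum count of 10, quasi-likelihood test on group). The SE is the size of the log2 fold change over the square root of F. CPM floors cover counting error only, as PCR copies are not independent molecules. The labels call the samples biological replicates without saying whether they shared a culture, so p-values measure the spread between these samples. Alternatives were upper-quartile scaling, DESeq2 1.42.0, limma 3.58.1 voom, no filter, the replicate number as a block, the set of replicates as a covariate, each set alone, a stricter threshold and leaving out each library. On simulated counts, 18%, 78%, 98% and 98% of 50 genes each were recovered at 1.25-, 1.5-, 2- and 4-fold, among 13948 tested genes.

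Same-numbered samples deviated together, with correlations of 0.16 to 0.28 against a bound of 0.1 in all 5 pairs. This pairing rests on the data, since the labels tie no number to a batch or day, and only 1 of 5 knockdown and 2 of 5 control samples correlated best with their own number.

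Named members are those called, those with a mean of at least 30 CPM and the antennal ones, and of other lists the 2 genes with the smallest adjusted p and Mef2. Members described beyond that rule, among them Obp8a, Obp18a, Obp22a, Obp56h, Obp83ef and Obp99d, were picked with their values in view. The members, lists and tests were chosen with earlier results of these data known, and roles come from general knowledge of the genes. Of 15 antennal names, 9 matched a row, and the other 6 are older names of genes on the same list. Other listed symbols with no match were left out, 1 each of the odorant degrading, ejaculatory, oenocyte and bristle support lists.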

Additional observations from a re-analysis of the deposited data

Results flagged for a closer look

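In 5 members 1 knockdown library stood apart from the other 4 as the lowest, and each time it was knockdown replicate 5. Its levels were 134.2 CPM for Obp19d, 21.4 CPM for Obp56f, 12.8 CPM for Obp83b, 0.0473 CPM for Obp84a and 31.9 CPM for Obp99a. Obp84a did not reach the count filter, so that value rests on few counts. In Obp56d, knockdown replicate 4 stood apart as the highest, at 227.7 CPM. The gap to the next library, divided by the range of the group, exceeded Dixon's critical value of 0.71 in each. Of 48 groups looked at, 6 stood out in this way, and chance flags about 1 in 20, or 2.4.

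The knockdown effect differed between the sets of replicates in 6 members. Replicates 4 and 5 minus replicates 1 to 3, the difference in log2 fold change was -2.59 for Obp99b (adjusted p = 0.00163), -0.72 for Obp56a (adjusted p = 0.0258), -0.46 for Obp56g (adjusted p = 0.0348) and -0.42 for Obp44a (adjusted p = 0.0316). It was 0.58 for Obp83ef (adjusted p = 0.0279) and 0.39 for Obp18a (adjusted p = 0.0443). These come from the interaction term of edgeR's quasi-likelihood fit, which 18.8% of all tested genes passed, no smaller a share than among the members. The sets follow the replicate numbers and no label describes them. They were found in earlier work on these data, so these p-values are no independent support for the split.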

How the results depend on the processing

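Obp58c, Obp83cd, Obp56i and Obp56a were called in all 18 alternatives, and Obp56g in 17. The 18 do not include the stricter threshold, and Obp58c passed the count filter of the main fit through the knockdown libraries alone. The number of higher members, 3, was 7 in replicates 1 to 3 alone and 3 under every omission of 1 library. The number of lower members, 5, was 10 with DESeq2, with the replicate block and with the set as a covariate, 8 in replicates 1 to 3 alone, and 1 to 7 when 1 library was left out. At an adjusted p under 0.01, edgeR called 0 lower, with 12 lower at an unadjusted p under 0.05, 10 by DESeq2 and 6 by limma voom at 0.05. The causes were not tested. The block added the lower calls of Obp8a (-0.42), Obp19d (-0.28), Obp22a (-0.36), Obp56f (-0.27) and Obp56h (-0.75), and ended no call among the 8.

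Uncalled log2 fold changes near 0 turned sign. Obp19a was -0.033 with upper-quartile scaling, -0.013 with no filter, -0.0021 with the set as a covariate and -0.10 in replicates 4 and 5 alone, and -0.13 to 0.18 with 1 library left out. Obp28a was -0.10 in replicates 4 and 5 alone and -0.028 to 0.31 with 1 library left out. Obp83a was -0.015 with upper-quartile scaling and -0.12 to 0.17 with 1 library left out. Obp83b was 0.0047 in replicates 4 and 5 alone and -0.20 to 0.019 with 1 library left out. Leaving out 1 library gave -0.23 to 0.00090 for Obp69a and -0.092 to 0.042 for lush. Obp99a was 0.039 in replicates 1 to 3 alone, and Obp99b was -1.10 in replicates 4 and 5 alone. No scaling moved the median of all genes by over 0.1. In simulated counts for this comparison, 18% of the 50 genes with the smallest simulated fold were called among 13948 tested, so most changes of that size were missed there. Of the simulated calls, 6.41% were false. The simulation held no sets of replicates, so its rates may not carry over to these libraries.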

Other observations

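Of 7 hemocyte markers, genes of the blood cells, 5 were higher in knockdown (71.4%), beside 11.1% higher of all tested genes. The 7 markers summed to 487 to 680 CPM in knockdown and 434 to 494 CPM in control libraries. Sr-CI, a scavenger receptor, was at 35.5 ± 1.94 CPM in knockdown and 23.0 ± 2.73 CPM in control libraries (log2 0.63, edgeR adjusted p = 0.000464). Cyp4g1, the oenocyte enzyme of cuticular hydrocarbon synthesis, had a log2 fold change of -0.68 (SE 0.12). The Obp share of all counts was 0.211% to 0.288% in knockdown and 0.287% to 0.315% in control libraries.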
